A study of Mus musculus with 10 samples.

Results

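The YAP and TEAD genes described here are 9 members of the Hippo pathway, taken by gene symbol from a table of 12803 genes. They are the coactivators Yap1 and Wwtr1 (TAZ), the DNA-binding factors Tead1, Tead2 and Tead4, the inhibitory kinases Lats1 and Lats2, the YAP-binding scaffold Amotl2 and the LIM protein Ajuba. All 9 had a row in the table. The rule is a list of symbols without a threshold on any value, and the list was drawn up with earlier results of these data known.

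In the Hippo pathway, the LATS kinases phosphorylate YAP and TAZ, which are then held in the cytoplasm or degraded. Unphosphorylated YAP and TAZ enter the nucleus and act through TEAD factors, since they do not bind DNA themselves. In muscle stem cells YAP and TAZ are known for promoting proliferation after activation, and TEAD factors bind elements of many muscle genes. The present values are transcript levels, and none of them reports phosphorylation or location of a protein.

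Polyadenylated RNA was sequenced from muscle stem cells of young male C57BL/6 mice, sorted from limb muscle as CD45-, CD31-, Sca1- and VCAM+ cells, with 1 animal for each library. The Tubastatin A group (n = 4) was cultured for 24 h with Tubastatin A at 40 µM, dissolved in DMSO, a compound that blocks HDAC6, an enzyme that removes acetyl groups from tubulin. The vehicle group (n = 3) was cultured for 24 h with an equal volume of DMSO, and the fresh group (n = 3) was taken directly after sorting, at 0 h. Both cultured groups were kept in Ham's F-10 medium with 10% horse serum on plates coated with extracellular matrix. A difference between either cultured group and fresh cells therefore joins the time in culture, the medium with its serum, the coating and the DMSO, and with Tubastatin A also the compound, which cannot be told apart.

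Levels are RPKM, which are reads scaled by gene length in kilobases and by the library size the authors used, and are given for each library in the order of its replicate number. A log2 change is a difference between group means of log2(RPKM + 1), with its standard error (SE) and with the adjusted p of limma over all 12803 genes, and a gene is called changed at an adjusted p under 0.05. The added 1 RPKM understates the change of genes with low levels. Between 37.5 M and 55.3 M reads stood in the table for each library, so that 1 read was worth 0.0160 to 0.0339 RPKM where the gene is 1 kb long. In the sort check, the summed RPKM of 10 muscle stem cell markers was 786 to 864 in the Tubastatin A, 1556 to 1781 in the vehicle and 2518 to 3636 in the fresh libraries. In both cultures most of the sum was Myod1, which averaged 539, 1186 and 757 RPKM in these groups. Pax7 averaged 2.14, 4.73 and 22.4 RPKM in the same order. In vehicle against fresh cells 8 of the 10 were called lower and 0 higher, where 35.0% of all genes were called lower and 32.0% higher. In Tubastatin A against vehicle cells 7 of the 10 were called lower and 2 higher, the latter Calcr and Chrdl2. Of all genes, 29.7% were called lower and 29.6% higher in that comparison. Markers of other muscle residents were also present. The 6 endothelial markers summed to 4.69 to 5.60 RPKM in Tubastatin A, 1.71 to 1.997 in vehicle and 30.1 to 39.5 in fresh libraries. With Tubastatin A most of this sum was Tek, at 4.21 RPKM against 0.879 RPKM with vehicle. Tek was called higher between the cultures, and the other 5 endothelial markers were not called. For 6 fibro-adipogenic markers, the sums were 7.37 to 13.0 in Tubastatin A, 33.9 to 43.4 in vehicle and 265 to 681 in fresh libraries, highest in fresh replicate 1. For 5 tenocyte markers they were 5.11 to 12.0, 66.5 to 78.0 and 43.1 to 61.2 in the same order, and for 6 pericyte and smooth muscle markers 11.5 to 62.0, 174 to 239 and 198 to 244. In vehicle against fresh cells 1 tenocyte marker was called higher and 4 lower. The higher one, Scx, made up most of the vehicle sum, at 70.5 RPKM against 10.0 RPKM in fresh cells. The pericyte sum was mostly Acta2, at 212 RPKM in both groups, while 5 of its 6 markers were called lower with vehicle. The fibro-adipogenic sum was mostly Col3a1, at 6.50 RPKM with Tubastatin A, 38.0 RPKM with vehicle and 407 RPKM in fresh cells. Between the cultures Col3a1 was called lower with Tubastatin A and Col1a1 higher, at 1.87 against 0.416 RPKM. The other 4 fibro-adipogenic markers were not called there. The 6 myofibre markers summed to 331 RPKM in Tubastatin A replicate 2 and to at most 4.39 in the other Tubastatin A libraries, against 15.4 to 23.6 in vehicle and 44.8 to 52.5 in fresh libraries. The 2 immune markers in the table summed to 2.51 to 3.89, 0.692 to 0.890 and 5.08 to 8.32, and the 3 Schwann cell markers to 1.65 to 2.68, 0.838 to 1.17 and 9.53 to 12.7, in the same order. Ptprc, Adgre1 and Cd52 of the immune list and S100b and Sox10 of the Schwann cell list had no row in the table. None of the markers in the table was without reads in every library of a group. Their part in the results below was not tested, and in bulk RNA fewer cells of a type and less RNA per cell cannot be told apart.

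The promoters of 7 of the 9 genes are in the RefSeq table used here, as windows from 250 bases before to 50 bases after the start site on GRCm38.p6. The core of the TEAD binding motif, GGAATG, was searched on both strands, so that CATTCC is a match on the opposite strand. It was present in the windows of Yap1, Wwtr1, Amotl2, Lats2 and Ajuba, 5 of 7 genes, and not in those of Tead2 and Lats1. Of the 9980 genes of the expression table with a window, 1420 (14.2%) had a match. The windows below are those of Ajuba and Wwtr1, the genes with the highest and the lowest difference of log2(RPKM + 1) between vehicle and fresh cells, and of Amotl2 and Lats2, which are known YAP targets. Capitals mark GGAATG or CATTCC, and each window is read 5′ to 3′ on the strand of its gene. The Ajuba window lies at chr14:54577612-54577911 (minus strand) and has 2 matches, 186 and 164 bases before the start site. The Wwtr1 window lies at chr3:57575861-57576160 (minus strand), with a match 136 bases before the start. The Amotl2 window lies at chr9:102717554-102717853 (plus strand), with a match 65 bases before the start. Of the 2 windows of Lats2, the one shown lies at chr14:57746074-57746373 (minus strand), with a match 4 bases after the start, and the other, at chr14:57734369-57734668, has 0 matches. Wwtr1 also has 2 windows, which overlap and hold the same match. The start sites are those of RefSeq and need not be the ends of the gene positions given below, which are from GENCODE. The whole Ajuba window, as shown, lies outside the position given for that gene. A match describes the letters only.
Ajuba: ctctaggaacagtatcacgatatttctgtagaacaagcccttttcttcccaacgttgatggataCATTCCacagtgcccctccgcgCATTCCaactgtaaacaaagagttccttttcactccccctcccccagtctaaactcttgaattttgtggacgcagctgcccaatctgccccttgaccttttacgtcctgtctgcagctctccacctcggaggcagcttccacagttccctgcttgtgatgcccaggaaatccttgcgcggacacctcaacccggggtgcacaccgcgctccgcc
Wwtr1: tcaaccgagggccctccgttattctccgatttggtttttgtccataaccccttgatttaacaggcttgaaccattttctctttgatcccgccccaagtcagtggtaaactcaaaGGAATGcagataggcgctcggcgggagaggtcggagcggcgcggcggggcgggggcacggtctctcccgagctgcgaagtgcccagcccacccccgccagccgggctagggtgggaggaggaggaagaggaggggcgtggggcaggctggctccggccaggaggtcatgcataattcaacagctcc
Amotl2: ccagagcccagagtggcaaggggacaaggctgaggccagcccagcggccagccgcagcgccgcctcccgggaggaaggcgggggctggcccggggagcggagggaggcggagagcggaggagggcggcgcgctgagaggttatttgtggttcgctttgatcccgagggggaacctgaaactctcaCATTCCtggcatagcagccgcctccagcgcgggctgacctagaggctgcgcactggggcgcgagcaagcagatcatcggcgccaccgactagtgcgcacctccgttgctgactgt
Lats2: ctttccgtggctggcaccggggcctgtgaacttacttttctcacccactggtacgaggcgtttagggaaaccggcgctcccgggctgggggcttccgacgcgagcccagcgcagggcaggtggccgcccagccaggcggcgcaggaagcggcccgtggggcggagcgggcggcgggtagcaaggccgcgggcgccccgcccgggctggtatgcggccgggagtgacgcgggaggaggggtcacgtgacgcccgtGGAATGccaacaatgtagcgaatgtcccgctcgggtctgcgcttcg

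In 24 h of culture with vehicle the coactivator Wwtr1 fell, while Tead1, Tead2, Tead4 and Ajuba rose. With Tubastatin A, Tead2 and Ajuba were lower than with vehicle. In vehicle against fresh cells 7 of the 9 genes were called, 4 higher and 3 lower, where 67.0% of all genes were called, 32.0% higher and 35.0% lower. Tubastatin A against vehicle cells gave 2 of 9, both lower, where 59.3% of all genes were called, 29.6% higher and 29.7% lower. Tubastatin A against fresh cells gave 3 of 9, 2 higher and 1 lower, where 64.9% of all genes were called, 29.8% higher and 35.2% lower. The libraries of both groups did not overlap for 6, 4 and 4 of the 9 genes in these comparisons, in the same order, where the background was 67.6%, 68.6% and 61.3% of all genes. Any pair of these comparisons shares the libraries of a group, so their values are not independent of each other.

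**Figure D1:**
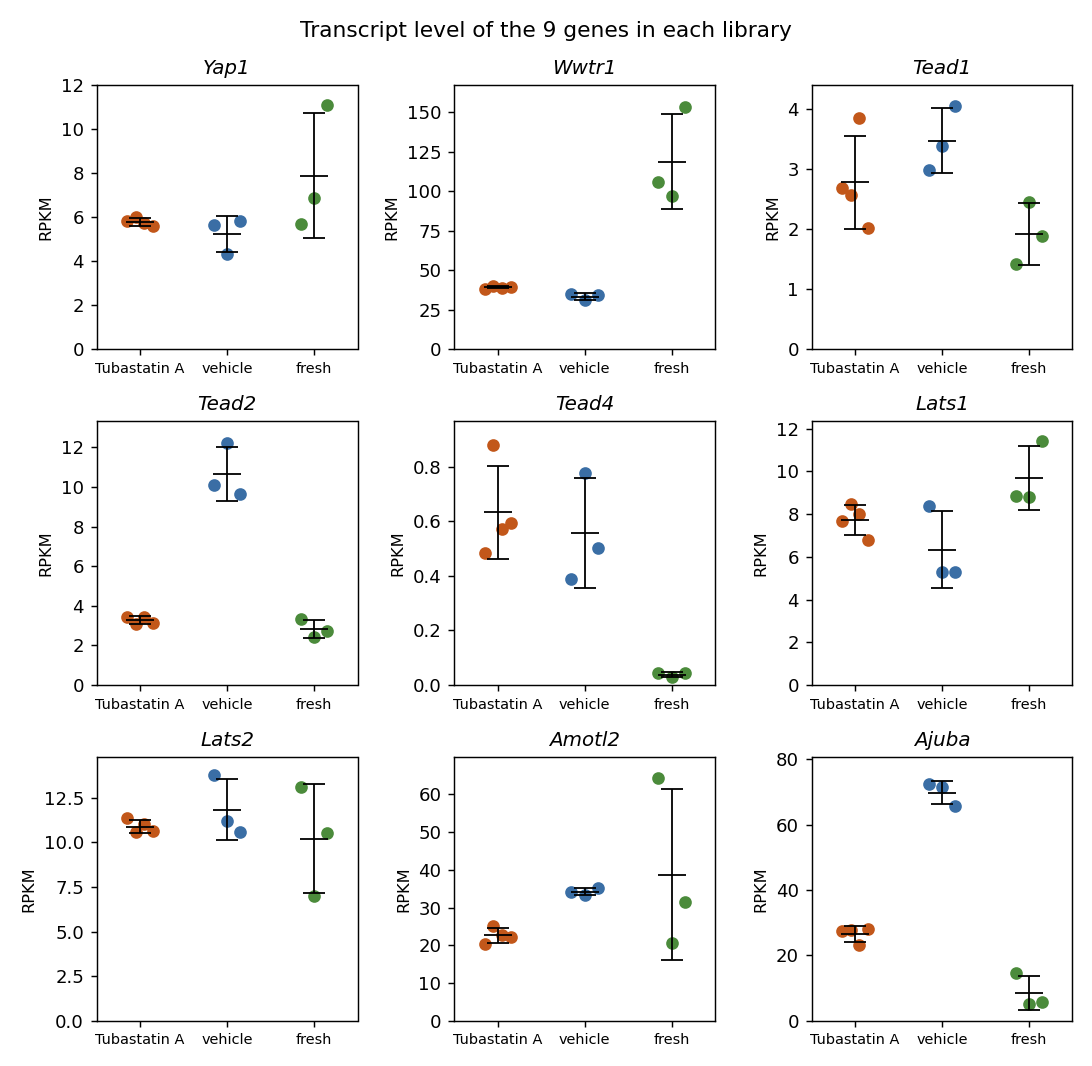
RPKM (vertical axis, linear, from 0) of each of the 9 genes in the 4 Tubastatin A, 3 vehicle and 3 fresh libraries. Points are libraries, the wide line is the group mean and the bars are ± 1 SD. Tead2 and Ajuba are highest in the 3 vehicle libraries, Wwtr1 in the 3 fresh libraries, and Tead4 is under 0.05 RPKM in each fresh library.

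The size of a change against fresh cells depends on the scaling. Reads in the table over the library size the authors used were 0.829 to 0.889 in Tubastatin A, 0.909 to 0.928 in vehicle and 1.39 to 1.41 in fresh libraries. Scaling by the reads in the table instead shifts the log2 RPKM difference of every gene alike. The shift is 0.61 in vehicle against fresh, 0.08 in Tubastatin A against vehicle and 0.69 in Tubastatin A against fresh cells. On the log2(RPKM + 1) scale used here it is smaller for genes with low levels. With that scaling, 6365 genes were called higher and 2905 lower in vehicle against fresh cells, in place of 4096 and 4484. For Tubastatin A against fresh cells it gave 6916 higher and 2591 lower, in place of 3811 and 4503. The members then stood at 5 higher and 1 lower in vehicle against fresh cells, at 5 higher and 1 lower in Tubastatin A against fresh cells, and at 0 higher and 2 lower in Tubastatin A against vehicle cells. Changes against fresh cells are therefore relative to the authors' scaling, and directions that turned round are named beside the gene.

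**Figure D2:**
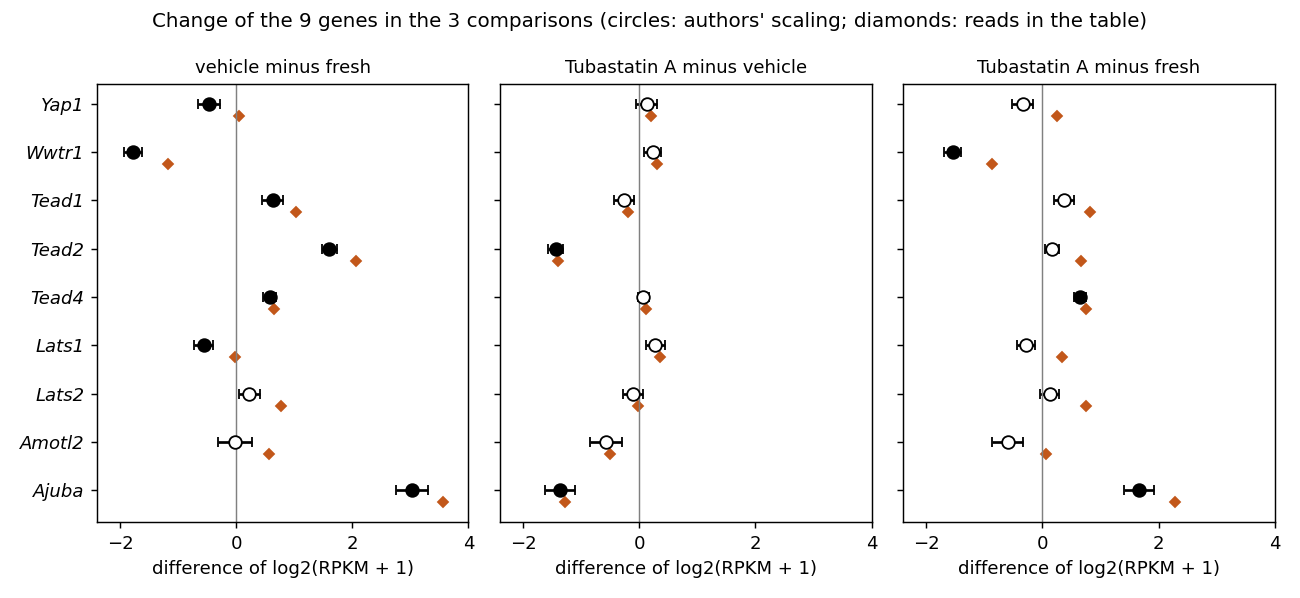
Difference of log2(RPKM + 1) between group means (horizontal axis) for the 9 genes in the 3 comparisons. Circles use the authors' scaling with bars of ± 1 SE, filled where the gene was called at an adjusted p under 0.05, and diamonds use the reads in the table. Against fresh cells the diamonds lie to the right of the circles, past 0 for Yap1 and Amotl2 in both panels and for Lats1 in Tubastatin A minus fresh.

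Among the coactivators, Wwtr1, which encodes TAZ, was the more abundant transcript in every group and fell in both cultures. It lies at chr3:57455649-57575910 on the minus strand of GRCm38, as do all gene positions given here. Its level was 38.3, 40.0, 39.1 and 39.2 RPKM with Tubastatin A, 34.8, 31.1 and 34.2 RPKM with vehicle, and 106, 97.2 and 153 RPKM in fresh cells. Every cultured library was below every fresh library, and every Tubastatin A library was above every vehicle library. Against fresh cells the log2 change was -1.78 (SE 0.15, adjusted p = 8.1e-07) with vehicle and -1.55 (SE 0.14, adjusted p = 1.8e-06) with Tubastatin A. Both were called under all 20 alternatives tried, and scaling by reads in the table gave -1.18 and -0.87. Between the cultures the log2 change was 0.23 (SE 0.14, adjusted p = 0.189), which is not called. A fit of these groups alone, without the wider spread of the fresh libraries, gave an adjusted p of 0.00989, leaving out fresh replicate 3 gave 0.0429, and the range over the alternatives was 0.00989 to 0.409.

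Yap1, the other coactivator, was the less abundant, and its only call lay at the threshold. The gene lies at chr9:7931999-8004596 (minus strand). It stood at 5.81, 6.00, 5.72 and 5.60 RPKM with Tubastatin A, 5.65, 4.31 and 5.81 RPKM with vehicle, and 5.69, 6.86 and 11.1 RPKM in fresh cells. All 3 groups overlap, and the highest value is that of fresh replicate 3. The log2 change in vehicle against fresh cells was -0.47 (SE 0.19, adjusted p = 0.0484), just past the threshold, and 0.06 with scaling by reads in the table. Leaving out fresh replicate 3 gave -0.22 (adjusted p = 0.192), and leaving out any vehicle or any Tubastatin A library gave an adjusted p of 0.0583 to 0.176. With the replicate number as a block it was 0.0526, and over all alternatives it was 0.00738 to 0.809. Tubastatin A differed from vehicle by 0.13 (SE 0.18, adjusted p = 0.574) and from fresh by -0.34 (SE 0.18, adjusted p = 0.116); against fresh cells it was 0.25 with scaling by reads in the table and -0.52 (adjusted p = 0.0181) without fresh replicate 1.

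Summed over both coactivators, the level was 44.9 ± 0.784 RPKM with Tubastatin A (SD, n = 4), 38.6 ± 2.79 RPKM with vehicle and 126.7 ± 32.9 RPKM in fresh cells (SD, n = 3 each). Yap1 made up 12.5 to 13.2% of this sum with Tubastatin A, 12.2 to 14.5% with vehicle and 5.09 to 6.75% in fresh cells. The share was higher in each cultured library than in each fresh library, while both cultures overlapped. Of 18 share comparisons made here by exact two-sided permutation tests, none could pass a threshold of 0.05, since the smallest p was 0.057 for 4 against 3 libraries and 0.1 for 3 against 3. For the Yap1 share the exact p was 0.057 for Tubastatin A against fresh (adjusted p = 0.13), 0.1 for vehicle against fresh (adjusted p = 0.14) and 0.343 between the cultures (adjusted p = 0.36). A share within a library does not depend on the scaling.

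Of the DNA-binding factors, Tead2 was high with vehicle and low in both other groups. It lies at chr7:45215753-45233644 (plus strand). Its level was 3.46, 3.07, 3.44 and 3.13 RPKM with Tubastatin A, 10.1, 12.2 and 9.63 RPKM with vehicle, and 3.34, 2.41 and 2.74 RPKM in fresh cells. The vehicle libraries stood apart from all others, and Tubastatin A and fresh libraries overlapped. The log2 change was 1.61 (SE 0.13, adjusted p = 5.8e-07) in vehicle against fresh cells and -1.44 (SE 0.12, adjusted p = 1.5e-06) in Tubastatin A against vehicle cells, both called under all 20 alternatives. For Tubastatin A against fresh cells it was 0.16 (SE 0.12, adjusted p = 0.267), but 0.67 (adjusted p = 4.1e-04) with scaling by reads in the table, with a range of 0.00041 to 0.566 over the alternatives. On the opposite strand Tead2 overlaps Cd37, a gene not in the table, and without a stated use of strand the reads of both cannot be told apart.

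Tead1, the broadly expressed member of the family, was called only in vehicle against fresh cells. It lies at chr7:112679318-112906807 (plus strand). Its level was 2.69, 2.56, 3.85 and 2.02 RPKM with Tubastatin A, 2.99, 3.38 and 4.06 RPKM with vehicle, and 1.41, 2.45 and 1.89 RPKM in fresh cells. Vehicle and fresh libraries did not overlap, and the Tubastatin A libraries overlapped both. The log2 change was 0.63 (SE 0.19, adjusted p = 0.0101) in vehicle against fresh and -0.26 (SE 0.17, adjusted p = 0.22) in Tubastatin A against vehicle cells. Between Tubastatin A and fresh cells it was 0.37 (SE 0.17, adjusted p = 0.0821). This last comparison was called under 5 alternatives, among them leaving out Tubastatin A replicate 4 (0.47, adjusted p = 0.0389) or fresh replicate 2 (0.50, adjusted p = 0.0312), in a range of 0.00135 to 0.267.

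Tead4, in mouse myoblasts a known target of MyoD, had at most 6 reads in a fresh library and rose in both cultures. It lies at chr6:128224288-128300823 (minus strand). It stood at 0.486, 0.880, 0.571 and 0.594 RPKM with Tubastatin A, from 109, 182, 93 and 106 reads, and at 0.388, 0.778 and 0.502 RPKM with vehicle, from 67, 120 and 81 reads. In fresh cells it stood at 0.0424, 0.0282 and 0.0447 RPKM, from 6, 3 and 5 reads. Both cultures overlapped, and each cultured library was above each fresh library. The log2 change was 0.58 (SE 0.11, adjusted p = 4.7e-04) with vehicle and 0.65 (SE 0.10, adjusted p = 1.3e-04) with Tubastatin A against fresh cells, values held down by the added 1 RPKM. From pooled reads the ratio to fresh cells was 14.1 (exact 95% interval 8.26 to 26.2) with vehicle and 16.3 (9.61 to 30.0) with Tubastatin A, and Tubastatin A over vehicle was 1.16 (0.993 to 1.34), intervals that cover counting error only. The test on recovered reads (limma's voom) gave log2 changes of 3.65 (SE 0.63, adjusted p = 1.4e-04) and 3.87 (SE 0.61, adjusted p = 7.1e-05) in these comparisons, within a range of adjusted p of 1.4e-05 to 0.00228 and of 4.7e-06 to 0.00085 over the alternatives. The fit gave 0.07 (SE 0.10, adjusted p = 0.567) between the cultures, and -0.01 without vehicle replicate 1. The highest Tead4 level was in Tubastatin A replicate 2, the library with the high myofibre markers, and a link between these was not tested.

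The fourth gene of the family, Tead3, is not among the 9 and was added after its values had been seen, so that the makeup of the family could be given. It stood at 0.802, 0.728, 1.04 and 0.685 RPKM with Tubastatin A, 0.786, 1.17 and 1.45 RPKM with vehicle, and 3.14, 2.10 and 3.66 RPKM in fresh cells. Its log2 change against fresh cells was -0.89 (SE 0.16, adjusted p = 4.4e-04) with vehicle and -1.11 (SE 0.15, adjusted p = 4.9e-05) with Tubastatin A, and both groups lay below fresh cells with either scaling. Summed over the 4 Tead genes, the level was 7.50 ± 1.03 RPKM with Tubastatin A (SD, n = 4), 15.8 ± 1.64 RPKM with vehicle and 7.75 ± 0.691 RPKM in fresh cells (SD, n = 3 each). Tead2 made up 38.6 to 48.6% of this sum with Tubastatin A, 61.6 to 70.8% with vehicle and 32.9 to 42.1% in fresh cells. Tead3 made up 10.1 to 11.7%, 5.51 to 9.28% and 30.1 to 43.9% in the same order of groups. The summed levels of Tubastatin A and fresh libraries overlapped, while their shares of Tead3 and of Tead4 did not. Tead4 held 6.42 to 12.1% with Tubastatin A, 2.72 to 4.44% with vehicle and 0.404 to 0.537% in fresh cells, and Tead1 held 31.5 to 43.2%, 19.3 to 26.0% and 17.8 to 35.0%. The exact permutation p was 0.057 (adjusted p = 0.13) for Tubastatin A against fresh cells for Tead3 and for Tead4, and for Tubastatin A against vehicle for each of the 4 genes. It was 0.114 (adjusted p = 0.14) for Tubastatin A against fresh cells for Tead1 and for Tead2.

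**Figure D3:**
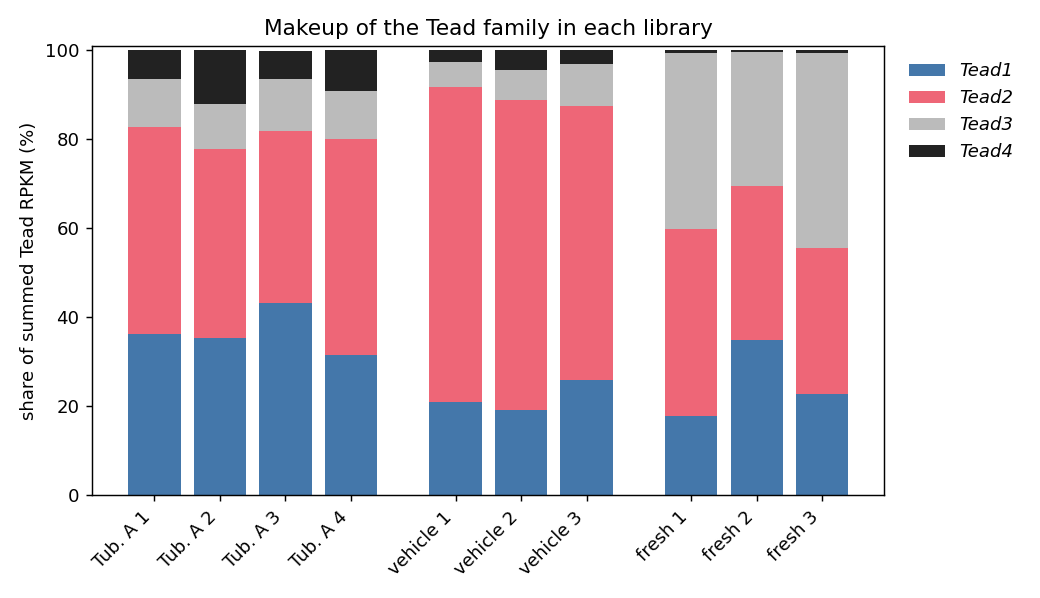
Share of each Tead gene (percent, vertical axis) in the summed RPKM of the 4 Tead genes, 1 bar per library, for the 4 Tubastatin A, 3 vehicle and 3 fresh libraries. Tead2 holds 61.6 to 70.8% of each vehicle bar, Tead3 30.1 to 43.9% of each fresh bar and Tead4 6.42 to 12.1% of each Tubastatin A bar.

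Of the LATS kinases, which phosphorylate YAP and TAZ, Lats1 was called in 1 comparison and Lats2 in none. Lats1, at chr10:7681214-7716460 (plus strand), stood at 7.70, 8.45, 8.02 and 6.79 RPKM with Tubastatin A, 8.395, 5.30 and 5.31 RPKM with vehicle, and 8.86, 8.78 and 11.4 RPKM in fresh cells. Vehicle replicate 1 was above the other vehicle libraries and within the Tubastatin A range, and both cultured groups lay below the fresh group without overlap. The log2 change was -0.56 (SE 0.17, adjusted p = 0.0115) in vehicle against fresh cells, and -0.02 with scaling by reads in the table. The call was lost without vehicle replicate 2 (-0.46, adjusted p = 0.0549) and without vehicle replicate 3 (-0.47, adjusted p = 0.0529), and the range over the alternatives was 0.00119 to 0.919. Tubastatin A differed from vehicle by 0.28 (SE 0.16, adjusted p = 0.156), called only without vehicle replicate 1 (0.47, adjusted p = 0.0172) in a range of 0.0172 to 0.436, and from fresh by -0.29 (SE 0.16, adjusted p = 0.136), or 0.33 with scaling by reads in the table.

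Lats2, which is also a known YAP target, lies at chr14:57689662-57758388 (minus strand). On the same strand its span overlaps that of Gm49361, a protein-coding gene not in the table, whose part in the reads was not tested. Lats2 stood at 11.3, 10.6, 11.01 and 10.6 RPKM with Tubastatin A, 13.7, 11.2 and 10.6 RPKM with vehicle, and 13.1, 7.0 and 10.5 RPKM in fresh cells. All groups overlap. The log2 change was 0.23 (SE 0.18, adjusted p = 0.288) in vehicle against fresh, -0.10 (SE 0.17) in Tubastatin A against vehicle and 0.12 (SE 0.17) in Tubastatin A against fresh cells. With scaling by reads in the table, the values against fresh cells were 0.77 (adjusted p = 0.00213) with vehicle and 0.74 (adjusted p = 0.00175) with Tubastatin A. Without fresh replicate 1 the vehicle value was 0.41 (adjusted p = 0.0413), and without fresh replicate 2 the Tubastatin A value was -0.10 (adjusted p = 0.482). The adjusted p ranged over the alternatives from 0.00213 to 0.994 with vehicle and from 0.00175 to 0.662 with Tubastatin A. Lats2 made up 55.5 to 61.0% of the summed Lats1 and Lats2 level with Tubastatin A, 62.1 to 67.8% with vehicle and 44.4 to 59.6% in fresh cells. The cultures did not overlap in this share (exact permutation p = 0.057, adjusted p = 0.13).

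Amotl2, a junction protein of the angiomotin family that binds YAP and is itself a known YAP target, was lower with Tubastatin A than with vehicle in all libraries, a difference that was not called. It lies at chr9:102716672-102733418 (plus strand). Its level was 20.4, 25.0, 22.7 and 22.3 RPKM with Tubastatin A, 34.2, 33.2 and 35.1 RPKM with vehicle, and 64.2, 20.5 and 31.5 RPKM in fresh cells. The cultures were each tight and did not overlap, while the fresh libraries spread over both. The log2 change in Tubastatin A against vehicle cells was -0.58 (SE 0.27, adjusted p = 0.0892). The fit of the cultures alone gave the same value with an adjusted p of 1.4e-04. Without fresh replicate 1 the adjusted p was 0.00277, without fresh replicate 2 it was 0.0195, and its range over the alternatives was 0.00014 to 0.178. The log2 change in vehicle against fresh cells was -0.02 (SE 0.29, adjusted p = 0.95), but 0.41 (adjusted p = 0.0384) without fresh replicate 1, and above 0 under all 3 other scalings, within a range of 0.0384 to 0.993. For Tubastatin A against fresh cells it was -0.60 (SE 0.27, adjusted p = 0.0723), or 0.06 with scaling by reads in the table and -0.97 (adjusted p = 0.00217) without fresh replicate 2, within a range of 0.00217 to 0.852.

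Ajuba, whose LIM protein binds and inhibits the LATS kinases, had the widest range of the 9 genes on the log2(RPKM + 1) scale, while Wwtr1 had it in RPKM and Tead4 as a ratio. It lies at chr14:54567472-54577558 (minus strand). Its level was 27.4, 27.8, 23.1 and 28.1 RPKM with Tubastatin A, 72.3, 71.4 and 65.6 RPKM with vehicle, and 14.6, 5.20 and 5.70 RPKM in fresh cells. No groups overlapped, with Tubastatin A between vehicle and fresh cells. The log2 change was 3.03 (SE 0.27, adjusted p = 1.2e-06) in vehicle against fresh, -1.36 (SE 0.26, adjusted p = 6.8e-04) in Tubastatin A against vehicle, and 1.67 (SE 0.26, adjusted p = 1.2e-04) in Tubastatin A against fresh cells. All 3 were called with the same sign under all 20 alternatives. Ajuba ranked above the other 8 genes with vehicle, at 69.8 ± 3.63 RPKM (SD, n = 3), and next to Wwtr1 with Tubastatin A, at 26.6 ± 2.36 RPKM (SD, n = 4). In fresh cells, at 8.52 ± 5.31 RPKM (SD, n = 3), it ranked below Lats1 and above Yap1, and the ranges of both overlapped its own. Of the 9 genes, 4 had their highest fresh value in fresh replicate 1 and 4 in fresh replicate 3, and 7 had their lowest in fresh replicate 2.

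In the order of levels with Tubastatin A, Wwtr1 came before Ajuba, Amotl2, Lats2, Lats1, Yap1, Tead2, Tead1 and Tead4. The ranges of Ajuba and Amotl2 overlapped there, as did those of Tead2 and Tead1. With vehicle the order was Ajuba, Amotl2, Wwtr1, Lats2, Tead2, Lats1, Yap1, Tead1 and Tead4, with overlap of Amotl2 with Wwtr1, of Lats2 with Tead2 and of Lats1 with Yap1. In fresh cells it was Wwtr1, Amotl2, Lats2, Lats1, Ajuba, Yap1, Tead2, Tead1 and Tead4. There the ranges overlapped from Lats2 down to Yap1 and for Tead2 with Tead1. RPKM is a level per length, so these orders compare genes.

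For each gene, the genes with the most similar profile were those with the smallest root mean square difference of log2(RPKM + 1), centred over the 10 libraries, among 7833 genes with a mean log2 level of at least 2. Nearest to Wwtr1 were Slc38a2 (0.09), an amino acid transporter, Sf3b1 (0.09), a splicing factor, and Ythdc1 (0.10), a reader of methylated RNA. Near to Tead2 were Zc3h8 (0.11) and Cdc7 (0.12), a kinase of replication origins. Cdc7 stood at 2.23 RPKM with Tubastatin A, 7.96 RPKM with vehicle and 2.002 RPKM in fresh cells, the same order of groups as Tead2. Ajuba had no neighbour as close, with Mtfp1 (0.28), Slc25a24 (0.31) and Mcat (0.34), all of mitochondria. This difference is not scaled to the spread of the gene itself. The root mean square of the centred values was 1.22 for Ajuba, 0.78 for Wwtr1, 0.705 for Tead2 and 0.29 for Yap1. Mtfp1 stood at 6.60 RPKM with Tubastatin A, 14.5 RPKM with vehicle and 1.17 RPKM in fresh cells. The nearest gene was Senp2 (0.13) for Yap1, Csnk2a2 (0.13) for Tead1, Plekho1 (0.10) for Tead4, Pcnx3 (0.18) for Amotl2, Atxn2 (0.11) for Lats1 and Usp48 (0.05) for Lats2. A small difference for genes that change little, such as Lats2, says only that both are flat. For Tead4 the match is to values held down by the added 1 RPKM. Plekho1 stood at 4.99 RPKM with Tubastatin A, 4.115 RPKM with vehicle and 2.62 RPKM in fresh cells. Tead4 averaged 0.633, 0.556 and 0.0385 RPKM in the same order, so their ratios between groups differ.

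Around these 9 genes, 37 of 39 listed regulators of the pathway were in the table. In vehicle against fresh cells 9 were called higher and 14 lower, 62.2% of the list against 67.0% of all genes, with a median log2 change of -0.11, against -0.03 over all genes. Scaling by reads in the table gave 20 higher and 7 lower. Between the cultures, Tubastatin A against vehicle, 9 were called higher and 5 lower, 37.8% against 59.3% of all genes, with a median of 0.16, against 0.02 over all genes, and 13 and 5 with scaling by reads in the table. With Tubastatin A against fresh cells 12 were called higher and 10 lower, 59.5% against 64.9% of all genes, with a median of 0.04, against -0.03 over all genes, and 24 and 4 with scaling by reads in the table. The fit of Tubastatin A and vehicle libraries alone called 22 of the 37, where it called 69.5% of all genes. The counts of the smaller lists below are to be read against the same 67.0% and 59.3% of all genes.

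The list put Tead3, itself a TEAD factor, with the Vestigial-like genes, cofactors whose proteins bind TEAD. All 4 of these genes in the table were called in vehicle against fresh cells, 1 higher and 3 lower, with Tead3 among the lower. In Tubastatin A against vehicle cells 2 were called, the Vestigial-like genes Vgll2 and Vgll3, both lower. Vgll2, a muscle-enriched cofactor, stood at 5.14, 6.78, 5.84 and 5.32 RPKM with Tubastatin A, 34.6, 44.8 and 39.1 RPKM with vehicle, and 145, 125 and 167 RPKM in fresh cells. It fell in culture and was lower still with Tubastatin A, with log2 changes of -1.86 (SE 0.14, adjusted p = 3.4e-07) in vehicle against fresh and -2.58 (SE 0.13, adjusted p = 2.8e-08) in Tubastatin A against vehicle cells. Vgll3 stood at 47.8, 53.9, 53.0 and 49.2 RPKM with Tubastatin A, 85.5, 79.4 and 84.6 RPKM with vehicle, and 23.5, 19.8 and 27.5 RPKM in fresh cells, with no overlap between any of the groups. This is the order of groups seen for Ajuba, and its log2 changes were 1.79 (SE 0.13, adjusted p = 1.5e-07) in vehicle against fresh and -0.70 (SE 0.12, adjusted p = 3.0e-04) in Tubastatin A against vehicle cells. Vgll4, which competes with YAP for TEAD, averaged 4.77 ± 1.72 RPKM with Tubastatin A (SD, n = 4), 4.59 ± 1.06 RPKM with vehicle and 18.3 ± 2.31 RPKM in fresh cells (SD, n = 3 each). It was lower in vehicle than in fresh cells by -1.80 on the log2 scale (SE 0.23, adjusted p = 2.1e-05), and 0.02 (SE 0.21, adjusted p = 0.955) between the cultures, a sign that turned round under several alternatives.

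Of the upstream activators of the kinases, 15 were in the table. In vehicle against fresh cells 4 were called higher and 6 lower, 66.7% of the list and close to the 67.0% of all genes. In Tubastatin A against vehicle cells 4 were called higher and 2 lower, 40% against 59.3% of all genes. Map4k1, a kinase upstream of LATS, was present mainly with vehicle, at 0.109, 0.266, 0.266 and 0.164 RPKM with Tubastatin A, 2.18, 2.86 and 2.18 RPKM with vehicle, and 0.471, 0.264 and 0.366 RPKM in fresh cells. Its log2 change was -1.50 (SE 0.10, adjusted p = 1.5e-07) in Tubastatin A against vehicle cells. Wwc1 (KIBRA), a scaffold that promotes LATS activity, averaged 1.85 RPKM with Tubastatin A, 1.41 RPKM with vehicle and 0.0987 RPKM in fresh cells, which in vehicle against fresh cells is a difference of 1.13 (SE 0.10, adjusted p = 9.9e-07) on the log2 scale. Taok3 and Tnik, kinases placed upstream of the cascade, were lower in vehicle than in fresh cells, by -0.81 (SE 0.13, adjusted p = 1.2e-04) and -1.02 (SE 0.16, adjusted p = 1.3e-04). Taok3 rose by 0.85 (SE 0.12, adjusted p = 7.1e-05) and Tnik fell by 0.51 (SE 0.15, adjusted p = 0.0116) in Tubastatin A against vehicle cells.

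Of the 7 genes of the core kinase module, 2 were called higher and 2 lower in vehicle against fresh cells, and 2 higher and 0 lower in Tubastatin A against vehicle cells. These are 57.1% and 28.6% of the module. Sav1, the scaffold of the MST kinases, stood at 3.57, 3.49, 3.68 and 3.49 RPKM with Tubastatin A, 2.24, 2.26 and 2.04 RPKM with vehicle, and 2.95, 3.46 and 3.51 RPKM in fresh cells. The vehicle libraries were below all others, with log2 changes of -0.44 (SE 0.11, adjusted p = 0.00345) in vehicle against fresh cells, or 0.01 with scaling by reads in the table, and 0.52 (SE 0.10, adjusted p = 8.5e-04) in Tubastatin A against vehicle cells. Stk4 (MST1), named after its values had been seen, was higher in vehicle than in fresh cells by 1.10 (SE 0.22, adjusted p = 7.8e-04), and Tubastatin A differed from vehicle by 0.37 (SE 0.20, adjusted p = 0.142). The difference between the cultures was called in the fit of the cultures alone (adjusted p = 0.0153) and without fresh replicate 1 (0.0406) or fresh replicate 2 (0.0449), in a range of 0.0153 to 0.347 over the alternatives.

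Of the 9 antagonists of the kinases, which comprise relatives of Ajuba and the STRIPAK phosphatase complex, 1 was called higher and 2 lower in vehicle against fresh cells, and 3 higher and 1 lower in Tubastatin A against vehicle cells. These are 33.3% and 44.4% of the list. Strip2, a STRIPAK subunit, stood at 0.0654, 0.0292, 0.0981 and 0.0581 RPKM with Tubastatin A, 2.59, 1.70 and 1.74 RPKM with vehicle, and 0.119, 0.0569 and 0.0657 RPKM in fresh cells. As for Map4k1, the vehicle libraries stood apart, with -1.49 (SE 0.10, adjusted p = 1.5e-07) on the log2 scale in Tubastatin A against vehicle cells. In Tubastatin A against fresh cells the value for Strip2 was -0.024 (SE 0.10, adjusted p = 0.845), and 0.021 with scaling by reads in the table. Limd1, a LIM protein related to Ajuba, averaged 19.4 RPKM with Tubastatin A, 17.0 RPKM with vehicle and 33.0 RPKM in fresh cells. In vehicle against fresh cells it fell by 0.92 on the log2 scale (SE 0.11, adjusted p = 1.0e-05), opposite in sign to Ajuba. Of the 2 anchors related to Amotl2, Amot and Amotl1, 1 was called higher and 1 lower in vehicle against fresh cells, and neither in Tubastatin A against vehicle cells.

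**Figure D4:**
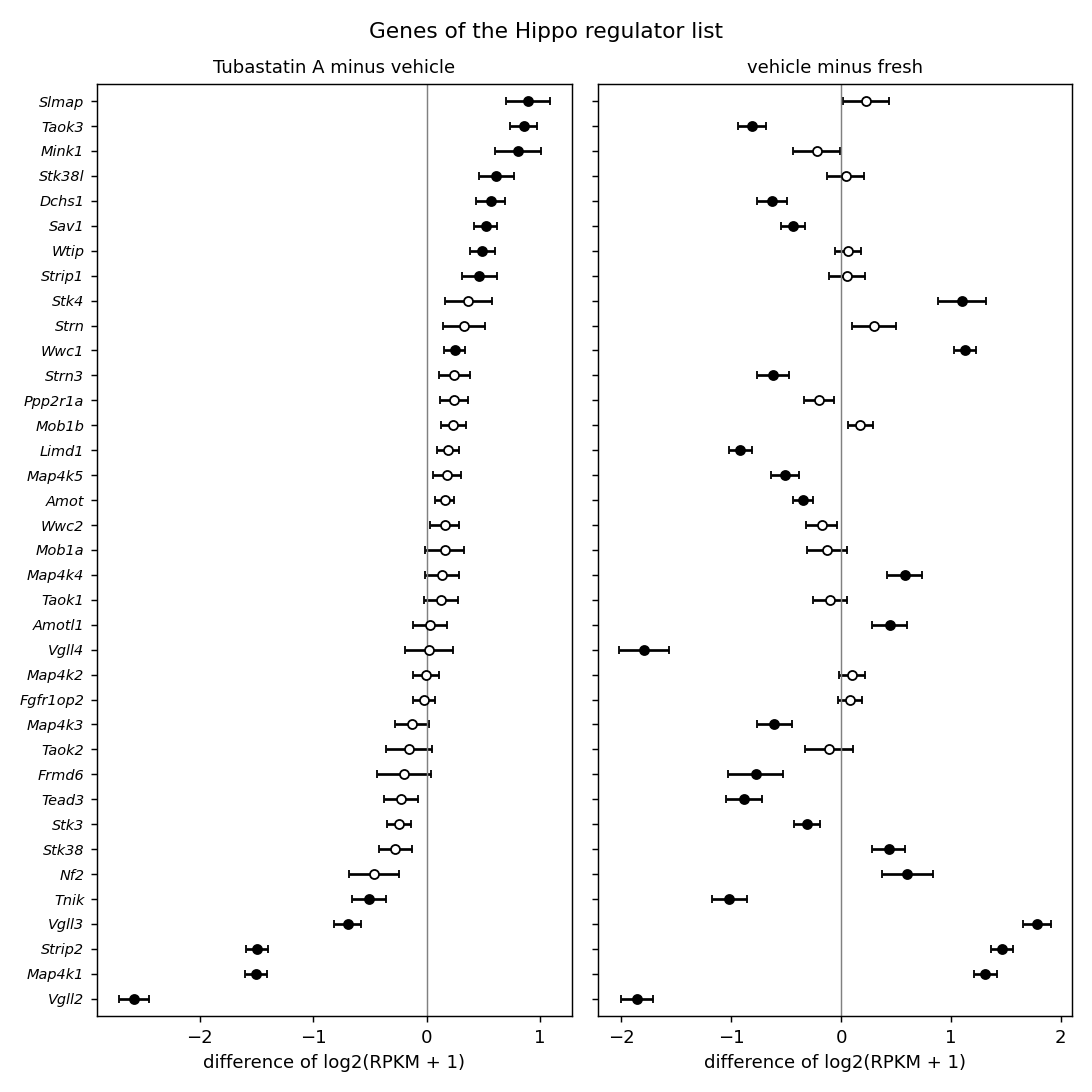
Difference of log2(RPKM + 1) between group means (horizontal axis) with bars of ± 1 SE for the 37 regulators in the table, in order of the change of Tubastatin A minus vehicle, on the authors' scaling. Filled circles were called at an adjusted p under 0.05, 14 in Tubastatin A minus vehicle and 23 in vehicle minus fresh, where scaling by reads in the table called 20 higher and 7 lower. Vgll2, Map4k1 and Strip2 stand lowest in Tubastatin A minus vehicle, and Map4k1 and Strip2 are higher in vehicle minus fresh.

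The 20 known YAP targets on the list, all in the table, did not move one way. Between the cultures, Tubastatin A against vehicle, 10 were called higher and 7 lower, 85% of the list against 59.3% of all genes, with a median log2 change of 0.32, against 0.02 over all genes. With vehicle against fresh cells 4 were called higher and 10 lower, 70% against 67.0% of all genes, with a median of -0.34, against -0.03 over all genes, and 7 and 8 with scaling by reads in the table. With Tubastatin A against fresh cells 5 were called higher and 9 lower, 70% against 64.9% of all genes, with a median of -0.17, against -0.03 over all genes, and 10 and 6 with scaling by reads in the table. Of the 13 targets with a promoter window, 5 (38.5%) had a match to the TEAD core.

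Ccn2 (CTGF), a secreted matrix protein and classical YAP target, was low with vehicle. It stood at 70.6, 78.6, 64.6 and 104.7 RPKM with Tubastatin A, 10.2, 16.4 and 17.9 RPKM with vehicle, and 174, 401 and 334 RPKM in fresh cells. The groups did not overlap, and the log2 change was -4.22 (SE 0.30, adjusted p = 1.7e-07) in vehicle against fresh, 2.36 (SE 0.28, adjusted p = 2.0e-05) in Tubastatin A against vehicle and -1.86 (SE 0.28, adjusted p = 1.0e-04) in Tubastatin A against fresh cells. F3, tissue factor, behaved likewise between the cultures, at 7.46, 6.46, 5.87 and 8.38 RPKM with Tubastatin A, 0.685, 0.998 and 0.795 RPKM with vehicle, and 4.37, 10.6 and 7.07 RPKM in fresh cells. Its log2 change was 2.13 (SE 0.22, adjusted p = 6.2e-06) in Tubastatin A against vehicle and -2.13 (SE 0.23, adjusted p = 6.7e-06) in vehicle against fresh cells. Crim1, a membrane protein that binds growth factors, rose by 1.28 (SE 0.12, adjusted p = 4.0e-06) in Tubastatin A against vehicle cells. Ccn1 (CYR61), the relative of Ccn2, was named after its values had been seen. It stood at 3355, 3248, 2505 and 3209 RPKM with Tubastatin A, 1112, 1244 and 1233 RPKM with vehicle, and 2269, 1116 and 954 RPKM in fresh cells. Its log2 change was 1.36 (SE 0.30, adjusted p = 0.00204) in Tubastatin A against vehicle cells. Between vehicle and fresh cells it was -0.17 (SE 0.32, adjusted p = 0.663), a sign that turned round without fresh replicate 1 (0.21) and with scaling by reads in the table (0.44).

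Another group of targets was highest with vehicle. Axl, a receptor tyrosine kinase, stood at 63.7, 55.6, 48.2 and 54.0 RPKM with Tubastatin A, 304, 300 and 252 RPKM with vehicle, and 69.7, 65.1 and 80.2 RPKM in fresh cells. The vehicle libraries stood apart, with log2 changes of -2.35 (SE 0.13, adjusted p = 4.4e-08) in Tubastatin A against vehicle and 1.98 (SE 0.14, adjusted p = 1.6e-07) in vehicle against fresh cells. In Tubastatin A against fresh cells Axl was called lower, at -0.37 (SE 0.13, adjusted p = 0.0269), but with scaling by reads in the table it was called higher, at 0.31 (adjusted p = 0.0384), and its adjusted p ranged from 0.0141 to 0.203 over the alternatives. Myof, a membrane protein of myoblast fusion, stood at 0.664, 0.886, 0.589 and 0.507 RPKM with Tubastatin A, 5.60, 4.23 and 4.61 RPKM with vehicle, and 0.722, 0.403 and 0.432 RPKM in fresh cells, and fell by 1.80 (SE 0.12, adjusted p = 2.0e-07) on the log2 scale in Tubastatin A against vehicle cells. Igfbp3, which binds insulin-like growth factors, stood at 4.51, 4.58, 4.61 and 5.30 RPKM with Tubastatin A, 35.4, 36.8 and 33.6 RPKM with vehicle, and 22.3, 15.8 and 17.3 RPKM in fresh cells. It was lower with Tubastatin A than in both other groups, by -2.66 (SE 0.12, adjusted p = 9.5e-09) against vehicle and -1.75 (SE 0.12, adjusted p = 1.7e-07) against fresh cells. Ankrd1, an ankyrin repeat protein of muscle and a classical YAP target named after its values had been seen, stood at 134, 150.1, 150.1 and 180 RPKM with Tubastatin A, 302, 334 and 313 RPKM with vehicle, and 131, 113 and 109 RPKM in fresh cells. Its log2 change was -1.04 (SE 0.13, adjusted p = 3.5e-05) in Tubastatin A against vehicle and 1.42 (SE 0.14, adjusted p = 3.0e-06) in vehicle against fresh cells, so that Ankrd1 and Ccn2 changed in opposite directions in both comparisons.

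A further set of targets was high in fresh cells and low in both cultures. Gadd45b, a stress-response gene, averaged 129 RPKM with Tubastatin A, 86.7 RPKM with vehicle and 443 RPKM in fresh cells. Ccdc80, a matrix protein, averaged 2.24 RPKM with Tubastatin A, 1.93 RPKM with vehicle and 19.5 RPKM in fresh cells. On the log2 scale they fell by 2.35 (SE 0.22, adjusted p = 1.6e-06) and 2.81 (SE 0.19, adjusted p = 1.3e-07) with vehicle against fresh cells. Rbms3, an RNA-binding protein, and Tgfb2, a secreted growth factor, fell by 2.02 (SE 0.14, adjusted p = 1.1e-07) and 1.51 (SE 0.13, adjusted p = 1.1e-06) in the same comparison. The summed markers of fibro-adipogenic cells, which express matrix genes, were also highest in fresh cells, and their part in these values was not tested. Dock5, a guanine nucleotide exchange factor, is not of this set and was lowest in fresh cells. It averaged 0.469 RPKM with Tubastatin A, 0.112 RPKM with vehicle and 0.0162 RPKM in fresh cells, the last from 3, 6 and 10 reads. Its log2 change was 0.40 (SE 0.06, adjusted p = 1.4e-04) in Tubastatin A against vehicle cells. Against fresh cells it was 0.53 (SE 0.06, adjusted p = 1.1e-05) with Tubastatin A and 0.13 (SE 0.065, adjusted p = 0.0969) with vehicle.

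**Figure D5:**
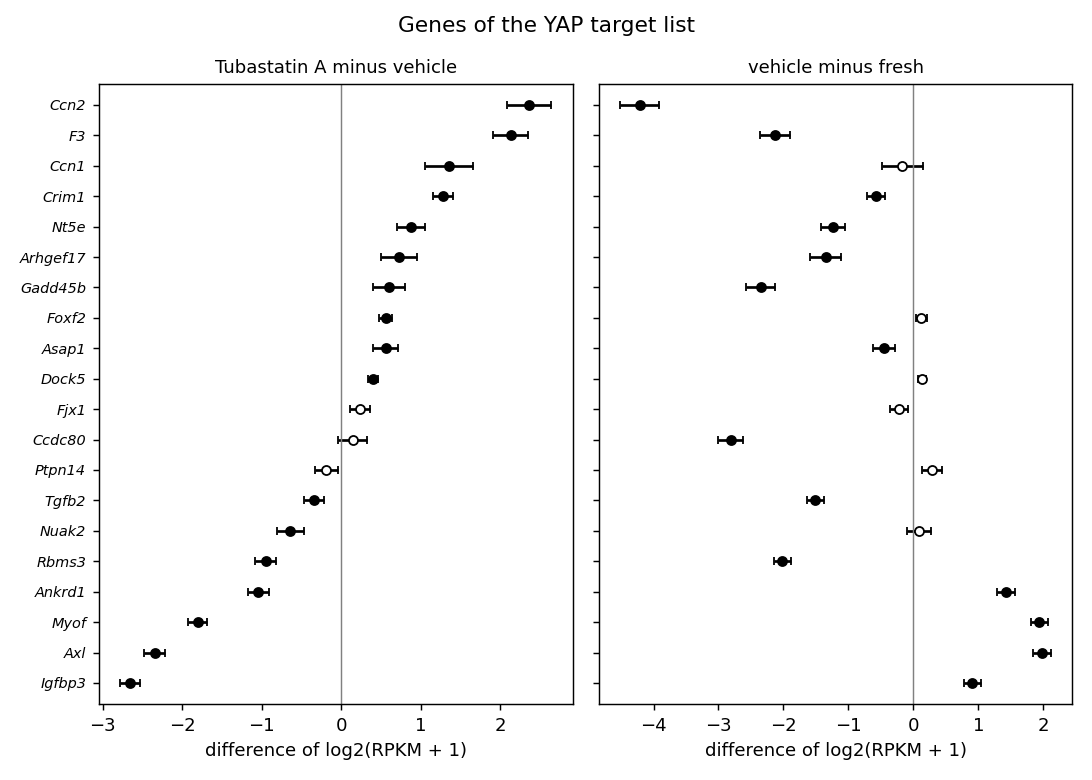
Difference of log2(RPKM + 1) between group means (horizontal axis) with bars of ± 1 SE for the 20 listed YAP targets, in order of the change of Tubastatin A minus vehicle, on the authors' scaling. Filled circles were called at an adjusted p under 0.05, 17 in Tubastatin A minus vehicle and 14 in vehicle minus fresh, where scaling by reads in the table called 7 higher and 8 lower. Ccn2 and F3 lie above 0 in Tubastatin A minus vehicle and below 0 in vehicle minus fresh, and Axl, Myof and Ankrd1 lie the other way in both.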

How the data were processed

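The build mm10 and the tools STAR, Trim Galore, Subread with featureCounts, and edgeR are named in the submitters' processing notes. Versions and settings are not given in the sources used here. The authors deposited 1 table of RPKM for 12803 genes and 10 libraries. With union exon lengths of GENCODE M21, RPKM times length, divided by the value of 1 read in that library, came out whole (tolerance 0.05 reads) in all 10 libraries for 12147 genes (94.9%), among them all 9 members, and this gave the library sizes behind the deposited RPKM. No value was exactly 0, and 1788 values of 576 genes were below 1 read, so the lowest values are not measured levels.

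All genes were fitted as log2(RPKM + 1) with limma 3.58.1 in R 4.3.3, with its variance trend (limma-trend), all 3 groups in 1 model and no replicate block. Tests were two-sided and adjusted by Benjamini-Hochberg over all 12803 genes. The fit was tested on simulated data. Shares were compared by exact permutation in Python 3.11.15 with scipy 1.17.1. Members and gene lists were chosen with earlier results of these data known. Of the regulator and target lists, up to 6 genes with the lowest p per comparison are named, and genes outside this rule are marked as named after their values were seen. Fat4 and Vgll1 of the regulator list had no row in the table. Alternatives were voom on recovered reads, 3 other scalings, pseudocounts of 0.1 and 5 RPKM, a filter on low levels, a fit of only the groups compared, a replicate block, a threshold of 0.01 and each of the 10 libraries left out.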

Additional observations from a re-analysis of the deposited data

Results flagged for a closer look

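Of 34 genes tested for a library far from the others in the Tubastatin A group, the only group of 4 libraries, 3 had one, where chance gives about 5% of tests. Ajuba was lowest in Tubastatin A replicate 3, at 23.08 RPKM, with the other replicates at 27.4 to 28.1 RPKM, all below the vehicle and above the fresh libraries. Limd1 stood apart in Tubastatin A replicate 4, at 17.85 RPKM. Igfbp3 was highest in Tubastatin A replicate 4, at 5.296 RPKM, with the others at 4.51 to 4.61 RPKM.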

How the results depend on the processing

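Of the results on single genes, 1901 values under an alternative kept direction and call, 62 lost the call, 30 gained it and 29 turned round. Of the counts, 235 stayed within 1.5 times. Members called in vehicle against fresh cells were 4 of 9 at an adjusted p under 0.01, where 56.7% of all genes were called. In the fit of only the groups compared, 4 members and 22 regulators were called in Tubastatin A against vehicle cells, where 69.5% of all genes were. Scaling by reads in the table called 6 members in Tubastatin A against fresh cells, and 74.3% of all genes. Leaving out 1 library at a time gave 5 to 9 members called in vehicle against fresh, 2 to 3 in Tubastatin A against vehicle and 3 to 5 in Tubastatin A against fresh cells, the last highest without fresh replicate 2. The same fits called 61.5 to 69.6%, 51.5 to 65.1% and 60.7 to 66.7% of all genes in these comparisons, in the same order. No p could be had for Tead4 with the filter on low levels, which removes it. The cause of these changes was not tested.

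Log2 changes that turned round with scaling by reads in the table were, in vehicle against fresh cells, 0.055 for Yap1, 0.563 for Amotl2, 0.007 for Sav1 and 0.441 for Ccn1. In Tubastatin A against fresh cells they were 0.253 for Yap1, 0.061 for Amotl2, 0.329 for Lats1, 0.021 for Strip2 and 0.310 for Axl. Relative log expression gave 0.063 and the upper quartile 0.043 for Amotl2 in vehicle against fresh cells, and the upper quartile 0.003 for Lats2 in Tubastatin A against vehicle cells. Voom gave -0.004 for Vgll4 in Tubastatin A against vehicle cells, and a pseudocount of 5 RPKM gave -0.010 for F3 in Tubastatin A against fresh cells.

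With each library left out in turn, the values of genes whose sign turned round lay between -0.389 and 0.410 for Amotl2 and between -0.413 and 0.211 for Ccn1 in vehicle against fresh cells. For Tubastatin A against vehicle they lay between -0.007 and 0.171 for Tead4, -0.175 and 0.001 for Lats2, -0.166 and 0.168 for Vgll4, and -0.018 and 0.271 for Ccdc80. For Tubastatin A against fresh cells they lay between -0.102 and 0.305 for Lats2, -0.040 and 0.002 for Strip2, -0.037 and 0.101 for Taok3, and -0.278 and 0.279 for F3.

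The labels do not say whether same-numbered libraries share an animal. Correlations of the deviations from group means lay between -0.192 and 0.387 for same-numbered libraries and between -0.523 and 0.467 for libraries of different number. Deviations from means of 3 or 4 libraries are tied to each other, so these values do not settle whether libraries are paired. The main fit takes no pairs. With the replicate number as a block, 6 members were called in vehicle against fresh, 2 in Tubastatin A against vehicle and 4 in Tubastatin A against fresh cells, where 66.4%, 55.7% and 61.6% of all genes were called. Under the block Yap1 lost its call in vehicle against fresh cells (adjusted p = 0.0526), Tead1 gained one in Tubastatin A against fresh cells (0.468, adjusted p = 0.0262), and F3 stood at -0.072 in Tubastatin A against fresh cells.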
